A study of Homo sapiens with 9 samples.

Results

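The EGF receptor family and its ligands were followed across 9 RNA-seq libraries of TC32 cells, a human Ewing sarcoma cell line. The 10 genes were taken by symbol from the 60603 genes of the deposited count table, and comprised the receptors EGFR, ERBB2, ERBB3 and ERBB4, the ligands HBEGF, TGFA, AREG, EREG and NRG1, and the feedback inhibitor ERRFI1. Ewing sarcoma cells depend on the fusion transcription factor EWS::FLI1, and the study silenced it with an siRNA across the fusion breakpoint to find induced and repressed targets. Cells were plated on this siRNA (siEF) or on a nonspecific siRNA (siNEG), or were kept in medium without siRNA (Media), with 3 biological replicates in each group. All 9 cultures were of genotype WT, were grown in 10% FBS with L-gln, were collected at 30 h and carried the same batch label, 1. All values therefore describe a single cell line at a single time. The labels give polyA RNA as the molecule and a small RNA kit as the library preparation.

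The 4 receptors of this family are tyrosine kinases that act as pairs. EGFR binds EGF, TGFA, AREG, EREG and HBEGF, while ERBB3 and ERBB4 bind the neuregulins; ERBB2 has no known ligand and serves as the preferred partner of the other receptors, and ERBB3 has little kinase activity of its own. The ligands are made as membrane precursors and are cut free by ADAM proteases, and the active pairs signal through the adaptors GRB2, SHC1 and GAB1 to the RAS-ERK and PI3K-AKT pathways. ERRFI1, also known as MIG6, is induced by receptor signaling, binds the kinase domains of the family and shuts them off.

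Total expected counts per library ran from 20727706 to 33134581, so that 3 counts, the limit that a count of 0 allows, amounted to between 0.0884 and 0.147 counts-per-million (CPM, with library totals scaled by the TMM method). This limit covers counting error only. The 10 most abundant genes took 12.29 to 12.87% of the counts in the siEF libraries and 5.779 to 6.615% in the other 6. The table has no row for the fusion transcript. FLI1, whose 3′ part is in the fusion, was at 38.4, 35.5 and 39.4 CPM in the siEF libraries, 48.6, 48.5 and 48.0 in siNEG and 59.5, 56.2 and 57.9 in Media. The siEF libraries were thus the lowest in every case, with a Log2FC of -0.35 against siNEG (adjusted p = 2.88e-05, edgeR's quasi-likelihood test), which is within the fold cut-off. The paper states that FLI1 itself is not expressed in these cells, and it checked the silencing by qPCR, with a 3-cycle change. The FLI1 count is a different measure from that qPCR, and the gap between them was not tested. NR0B1, an established EWS::FLI1 induced target, fell by 2.97 on the log2 scale (adjusted p = 7e-15). Of 5 Ewing sarcoma markers (CD99, NKX2-2, NR0B1, STEAP1 and LIPI), all were detected in every group. Against siNEG 4 fell, where 11.7% of all genes tested were lower. CD99 did not fall, with a Log2FC of 0.23 against siNEG (adjusted p = 0.00123), which is within the fold cut-off. The summed level of all 5 was 243 to 252 CPM in siEF, 445 to 469 in siNEG and 540 to 592 in Media. CD99 alone averaged 189, 161 and 204 CPM in the same order, so it made up most of the siEF sum. Of 5 epithelial markers, EPCAM, CDH1, KRT5 and KRT14 rose against siNEG, where 17.1% of all genes tested were higher, and ESRP1 did not pass. Their summed level was 4.95 to 6.22 CPM in siEF, 0.385 to 0.569 in siNEG and 0.825 to 1.31 in Media, and CDH1 was at 0 in siNEG. CDH1, KRT5 and KRT14 passed the filter on low counts through their siEF libraries alone, so the counts of these markers are a description. Against Media 3 of the 5 were higher, since EPCAM was at 13, 9 and 9 counts in siEF and 13, 10 and 13 in Media (Log2FC 0.02, adjusted p = 0.97) and was lower in siNEG. The leukocyte markers summed to 0.594 to 0.984 CPM over all groups, with CD3E at 0 in all 9 libraries, and the endothelial markers to 1.81 to 2.69 CPM in siEF and 3.43 to 5.06 in the controls. The endothelial markers did not move together. PECAM1, the most abundant, fell by 1.22 against siNEG. CDH5 had a Log2FC of 1.65 against siNEG, which was not called, and of 2.69 against Media, which was (adjusted p = 0.0028). Its counts were 19, 14 and 18 in siEF, 16, 2 and 2 in siNEG and 3, 5 and 1 in Media. CDH5 too passed the filter on low counts through its siEF libraries, so its values are a description. The part of these marker changes in the results below was not tested.

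After silencing, EGFR, ERBB2 and ERRFI1 rose and NRG1 and ERBB4 fell against siNEG, while ERBB3 and HBEGF did not pass the test. EGFR had the largest change, from near the detection limit to a few CPM, and ERRFI1, the most abundant member in every group, rose 4.46-fold. Calls required a Log2FC beyond 1 in either direction together with an adjusted p under 0.01, which are the cut-offs of the study. By this rule 3 of 7 tested members were higher in siEF, where 17.1% of the 16093 genes tested were, and 2 were lower, where 11.7% of all genes were; in both directions together 28.8% of genes were called. TGFA, AREG and EREG were too low to be tested, and EGFR passed the filter on low counts through its siEF libraries alone, so the count over the tested members is a description. Since the RNA is from whole cultures, fewer cells with a transcript and less of it per cell cannot be told apart.

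**Figure D1:**
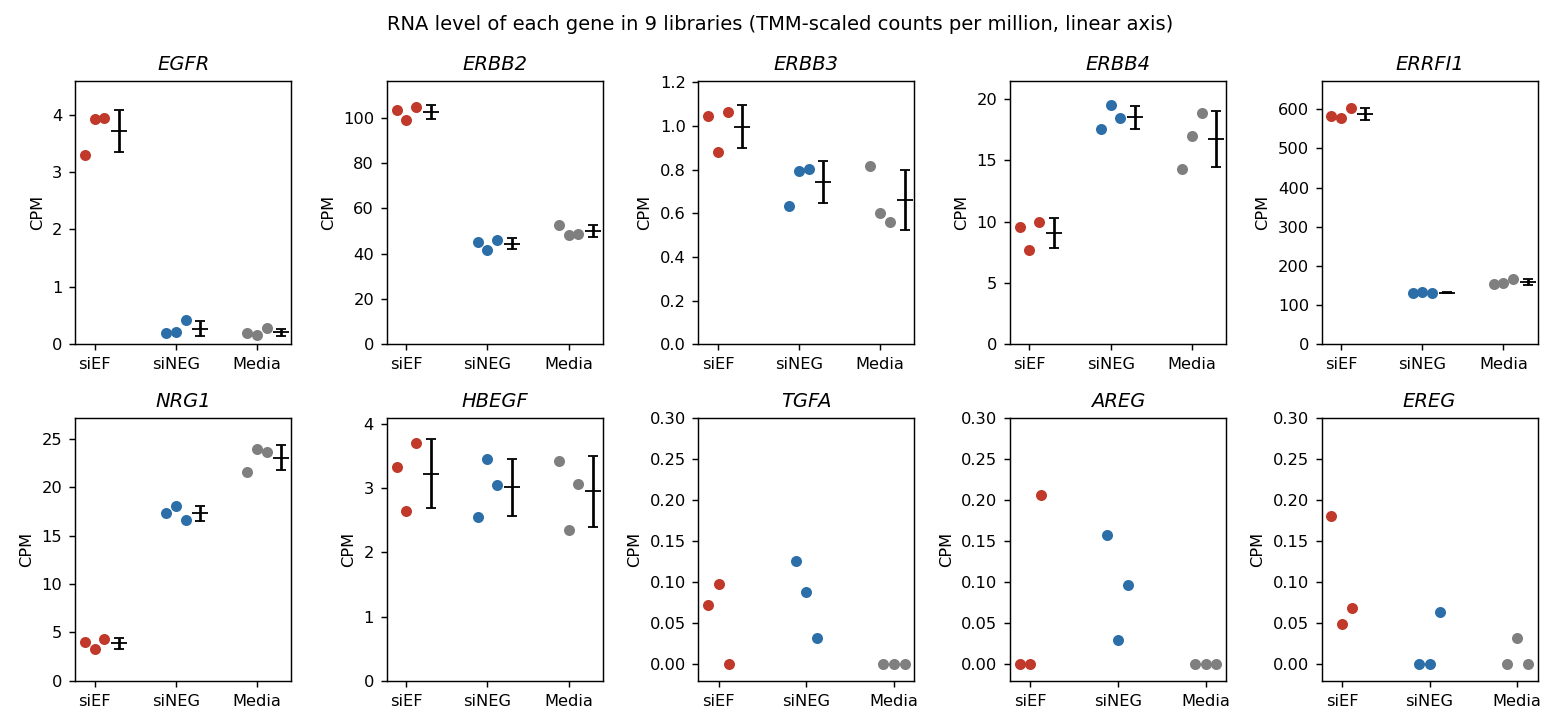
RNA level of the 10 genes in each library. Each panel plots 1 gene, with the group on the horizontal axis and TMM-scaled CPM on a linear vertical axis, points for the 3 libraries of a group and, for the 7 genes tested, a bar for the mean ± SD. EGFR, ERBB2 and ERRFI1 stand higher in siEF than in all 6 control libraries, ERBB4 and NRG1 stand lower, and TGFA, AREG and EREG stay under 0.3 CPM in all 9.

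EGFR (ENSG00000146648.18, chromosome 7, 55019017 to 55211628, forward strand, GRCh38) is the receptor for EGF itself. Its counts were 91, 80 and 115 in siEF, 6, 7 and 13 in siNEG and 6, 5 and 8 in Media. In CPM, these were 3.29, 3.92 and 3.94 in siEF, 0.190, 0.206 and 0.417 in siNEG, and 0.196, 0.159 and 0.279 in Media. The siEF libraries were all far above the 6 control libraries, and the siNEG and Media libraries overlapped. The Log2FC was 3.76 against siNEG (SE 0.326, 95% interval 3.07 to 4.46, adjusted p = 2.01e-08, edgeR's quasi-likelihood test), or 13.6-fold, and 4.12 against Media (adjusted p = 1.14e-08). Among all genes tested, 2.42% had a larger rise against siNEG. EGFR entered that set through its siEF libraries alone, so its rank and adjusted p are a description. Despite the size of its rise, EGFR was the third of the 4 receptors per length in siEF.

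ERBB2 (ENSG00000141736.13, chromosome 17, 39687914 to 39730426, forward strand), the partner receptor also called HER2, was the most abundant receptor. It stood at 104, 99.1 and 105 CPM in siEF, 45.2, 41.8 and 46.2 in siNEG and 52.8, 48.1 and 48.9 in Media. Every siEF library was above every control library, by more than the spread within any group. The Log2FC was 1.21 against siNEG (SE 0.0573, 95% interval 1.09 to 1.33, adjusted p = 8.86e-12), or 2.31-fold, and 15.3% of all genes had a larger rise. Against Media it was 1.04 (adjusted p = 5.54e-11), close to the fold cut-off, and that call was lost when the difference was tested against the cut-off itself (adjusted p = 0.348). Of the ERBB2 exons, 571 bases (5.53%) lie opposite those of MIEN1, whose counts ran from 357 to 986 and whose Log2FC of -0.71 had the opposite sign; whether the counting used strand is not given in the sources used here.

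ERBB4 (ENSG00000178568.15, chromosome 2, 211375717 to 212538841, reverse strand), a receptor for neuregulins and for HBEGF, was at 9.58, 7.69 and 9.94 CPM in siEF, 17.6, 19.5 and 18.4 in siNEG and 14.3, 17.0 and 18.9 in Media. All siEF libraries were below all 6 controls. It fell by 1.02 on the log2 scale against siNEG (SE 0.111, 95% interval -1.25 to -0.78, adjusted p = 3.42e-07), so its interval holds the cut-off, and the call was lost without siEF replicate 2 (Log2FC -0.93), without siNEG replicate 2 (-0.99) and with upper quartile scaling (-0.93). Against Media its Log2FC was -0.87 (adjusted p = 2.46e-06), which was not called. ERBB4 spans 1163125 bases and NRG1 1216445, and both of these long genes were lower in siEF, while the other 8 members span at most 192612. Of those 8, TGFA, AREG and EREG were too low to be tested. Whether span goes with change over all genes was not tested.

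ERBB3 (ENSG00000065361.15, chromosome 12, 56076799 to 56103505, forward strand), the neuregulin receptor with little kinase activity, was the lowest receptor in siEF in CPM and per length, at 1.05, 0.882 and 1.06 CPM, and was at 0.632, 0.796 and 0.801 in siNEG and 0.816, 0.603 and 0.559 in Media. These were 16 to 31 counts per library. The siEF libraries lay above both control groups without overlap, but the Log2FC of 0.43 against siNEG (SE 0.317, 95% interval -0.24 to 1.10) did not pass the test (adjusted p = 0.233), and neither did that of 0.60 against Media (adjusted p = 0.104). Over all tested members, 6 of 7 did not overlap between siEF and siNEG, where 76.9% of all genes did not.

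NRG1 (ENSG00000157168.20, chromosome 8, 31639222 to 32855666, forward strand), the neuregulin that binds ERBB3 and ERBB4, was the only ligand called. It was at 4.05, 3.28 and 4.32 CPM in siEF, 17.3, 18.1 and 16.6 in siNEG and 21.6, 23.9 and 23.7 in Media. The 3 groups did not overlap, with siEF lowest and Media highest. NRG1 fell by 2.14 on the log2 scale against siNEG (SE 0.101, 95% interval -2.36 to -1.93, adjusted p = 8.13e-12), a level 4.41-fold lower, and 2.04% of all genes had a larger fall. Against Media it fell by 2.55 (adjusted p = 6.83e-13).

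HBEGF (ENSG00000113070.8, chromosome 5, 140332843 to 140346603, reverse strand), a ligand of EGFR and ERBB4, was at 3.32, 2.65 and 3.70 CPM in siEF, 2.56, 3.45 and 3.05 in siNEG and 3.43, 2.35 and 3.07 in Media. All 3 groups overlapped. The Log2FC was 0.10 against siNEG (95% interval -0.32 to 0.53, adjusted p = 0.65), so that a rise or fall beyond the fold cut-off lay outside the interval.

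The other 3 EGFR ligands had at most 6 counts in a library and were filtered out before the test. TGFA had 2, 2 and 0 counts in siEF, 4, 3 and 1 in siNEG and 0 in all Media libraries. AREG (amphiregulin) had 0, 0 and 6 counts in siEF, 5, 1 and 3 in siNEG and 0 in Media, and EREG (epiregulin) had 5, 1 and 2, then 0, 0 and 2, then 0, 1 and 0. The siEF and siNEG libraries overlapped in all 3 genes. TGFA and AREG lay above Media, at 0 throughout, in all siNEG libraries. In CPM, EREG lay above Media in all siEF libraries, but siEF replicate 2 and Media replicate 2 each had 1 count. These are separations of at most a few counts, for which the fit gave no p. Among the genes tested, 32.7% did not overlap between siNEG and Media and 75.8% between siEF and Media. AREG and EREG lie in a cluster on chromosome 4 with the related ligands EPGN (1 count in all 9 libraries together) and BTC (72 counts, at most 13 in a library), between 74308470 and 74794523. In the same region, within 500 kb of AREG, the chemokine genes PF4 and PPBP had no count and CXCL5 and CXCL3 at most 1 and 2, while MTHFD2L reached 277 counts and PARM1 reached 3604.

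ERRFI1 (ENSG00000116285.13, chromosome 1, 8004404 to 8026309, reverse strand), the inhibitor, was at 582, 578 and 605 CPM in siEF, 130, 133 and 132 in siNEG and 153, 156 and 167 in Media. The siEF libraries were far above all controls, and the spread within groups was small. ERRFI1 rose by a Log2FC of 2.16 against siNEG (SE 0.045, 95% interval 2.06 to 2.25, adjusted p = 4.57e-16) and by 1.89 against Media (adjusted p = 1.51e-15). Among all genes, 7.06% had a larger rise against siNEG. A lncRNA on the opposite strand shares 155 exon bases with it and had at most 17 counts in a library.

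The sequences upstream of the RefSeq start are given for 3 members that differ in response: EGFR and ERRFI1, the members with the largest rises, and HBEGF, which did not pass the test. Of the 10 members, 8 had a promoter in the RefSeq table (build GRCh38.p14). Each run is the 250 bases before the start, 5′ to 3′ on the strand of the gene, and capitals mark GGAA, the core of the ETS motif bound by FLI1, and its reverse complement TTCC.
EGFR (chr7:55018767-55019016, forward strand): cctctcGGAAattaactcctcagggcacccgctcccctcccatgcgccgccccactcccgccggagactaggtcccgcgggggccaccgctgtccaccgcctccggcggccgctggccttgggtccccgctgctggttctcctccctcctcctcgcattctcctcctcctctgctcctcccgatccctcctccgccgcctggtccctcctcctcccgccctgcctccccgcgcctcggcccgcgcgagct
ERRFI1 (chr1:8026310-8026559, reverse strand): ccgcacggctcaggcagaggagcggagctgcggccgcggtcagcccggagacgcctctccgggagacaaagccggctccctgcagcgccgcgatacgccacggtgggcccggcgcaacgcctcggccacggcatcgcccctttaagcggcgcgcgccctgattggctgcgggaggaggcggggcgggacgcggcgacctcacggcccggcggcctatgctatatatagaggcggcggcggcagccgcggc
HBEGF (chr5:140346604-140346853, reverse strand): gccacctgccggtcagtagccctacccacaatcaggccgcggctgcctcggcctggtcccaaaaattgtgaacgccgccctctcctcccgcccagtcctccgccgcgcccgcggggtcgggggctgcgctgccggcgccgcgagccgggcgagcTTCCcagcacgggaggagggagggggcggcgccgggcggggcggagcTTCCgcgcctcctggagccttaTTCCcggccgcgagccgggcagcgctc

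GGAA was counted on both strands. The EGFR run holds 1, the ERRFI1 run 0 and the HBEGF run 3. The runs of the same length before ERBB2 and ERBB4 hold 5 each. Among 35116 promoters of this length, 92.74% hold at least 1 GGAA and the median is 3, so the counts of the family lie on both sides of that median, and members that rose are found on either side. None of these 5 runs holds GGAAGGAA, the shortest repeat of the motif, which 3.06% of promoters hold, or the AP-1 motif TGAGTCA, which 4.2% hold (TGACTCA on the other strand). The ERBB2 run holds 2 copies of CCGGAAGT, a longer ETS site that includes GGAA, counted with its reverse complement ACTTCCGG. Both copies lie in the part of the run within the annotated gene. The other 4 runs hold none, and 3.42% of promoters hold at least 1. A later EGFR start in the RefSeq table, within the gene, has 2 TGAGTCA and 5 GGAA in its 250 bases. A match of letters is a description of the window and shows no binding, and an absent motif leaves out sites elsewhere. The paper lists HBEGF among established tandem sites of EWS::FLI1 and AP-1, with reduced binding after low-concentration mithramycin. It also shows altered nascent transcription there. Where that HBEGF site lies relative to this window was not tested.

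Levels can be compared between genes only per length, for which CPM was divided by the kilobases of annotated exon. In siNEG, ERBB2 stood at 4.30 ± 0.224 CPM per kb (SD, n = 3) and made up 74.1% ± 1.88 of the receptor RNA. ERBB4 was at 1.42 ± 0.0725 CPM per kb, or 24.5% ± 1.80, ERBB3 at 0.0634 ± 0.00822 and EGFR at 0.0170 ± 0.00794. ERBB2 and ERBB4 therefore accounted for nearly all receptor transcripts in the control cells.

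In siEF, the summed receptor level was 10.9 ± 0.385 CPM per kb, against 5.81 ± 0.180 in siNEG and 6.19 ± 0.146 in Media. The share of ERBB2 was 90.7% ± 0.563 and that of ERBB4 6.35% ± 0.637. EGFR took 2.13% ± 0.245, against 0.290% ± 0.127 in siNEG. The ratio of ERBB4 to ERBB2 per length was 0.0700 ± 0.00741 in siEF, 0.332 ± 0.0331 in siNEG and 0.267 ± 0.0474 in Media. The difference in the sum thus lay mostly in ERBB2, and EGFR, with the largest fold, added little to it. The sum was not tested. These values move with the length used, since the canonical transcript of ERBB2 has 4557 bases of the 10321 in its exons: with canonical lengths the ERBB4 share was 3.14% in siEF, 13.4% in siNEG and 11.1% in Media, and its ratio to ERBB2 was 0.0333, 0.157 and 0.127.

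**Figure D2:**
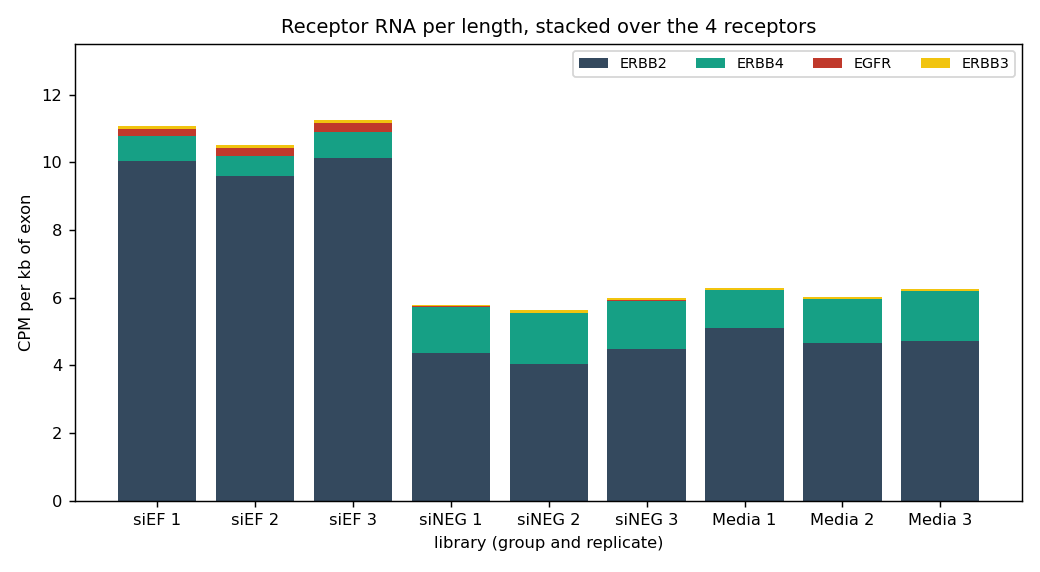
Receptor RNA per length in each library. The horizontal axis gives the library by group and replicate, the vertical axis the TMM-scaled CPM per kb of exon, and the stacked bars the 4 receptors. ERBB2 makes up 90.7% of the stack in siEF and 74.1% in siNEG, the ERBB4 layer is thinner in siEF, and the EGFR layer can be seen in the siEF bars.

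The order of all members per length also differed between groups. In siNEG it ran from ERRFI1 (31.5 CPM per kb) through ERBB2 (4.30), ERBB4 (1.42), HBEGF (1.01) and NRG1 (0.811) to ERBB3, AREG, EGFR, TGFA and EREG, with no overlap between neighbours as far as ERBB3 and overlap between all neighbours after it. In siEF it was ERRFI1 (141), ERBB2 (9.93), HBEGF (1.08), ERBB4 (0.697), EGFR (0.233), NRG1 (0.182) and ERBB3 (0.0852), again without overlap between neighbours, and AREG, EREG and TGFA followed with overlap. In Media, ERBB4, NRG1 and HBEGF overlapped as neighbours, and so did EREG, TGFA and AREG. NRG1 therefore stood below EGFR only in siEF among the 3 groups. With canonical transcript lengths, NRG1 (1.45) and HBEGF (1.28) changed places in siNEG.

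Ligand and inhibitor levels relative to the receptors differed in the same libraries. ERRFI1 to ERBB2, per length, was 14.2 ± 0.285 in siEF, 7.35 ± 0.460 in siNEG and 7.86 ± 0.667 in Media, so the inhibitor RNA was higher relative to the main receptor as well. NRG1 to ERBB4, ligand to receptor, was 0.261 ± 0.00366 in siEF, 0.570 ± 0.0261 in siNEG and 0.846 ± 0.0783 in Media. NRG1 to HBEGF was 0.169 ± 0.00528, 0.814 ± 0.116 and 1.13 ± 0.276 in the same order. All 3 ratios kept siEF apart from the controls without overlap, and only NRG1 to ERBB4 also kept siNEG apart from Media. With canonical lengths, ERRFI1 to ERBB2 was 8.44, 4.38 and 4.68 and NRG1 to ERBB4 was 0.432, 0.946 and 1.40 in siEF, siNEG and Media, so NRG1 was above ERBB4 in Media.

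Nonspecific siRNA was compared with medium alone to show what transfection without silencing went with. No member was called between siNEG and Media by edgeR's quasi-likelihood test, where 0.429% of all genes were. With edgeR and with DESeq2, 3 members had an unadjusted p under 0.05. The share of all genes under that unadjusted threshold is not given here, so this count is a description. ERRFI1 had a Log2FC of -0.27 (SE 0.044, adjusted p = 0.000488) and NRG1 of -0.41 (SE 0.0811, adjusted p = 0.00207), both under the fold cut-off, where 9.79% of all genes reached such an adjusted p. ERBB2 had a Log2FC of -0.17 (adjusted p = 0.0561). In these 3 genes every siNEG library was below every Media library, where 32.7% of all genes did not overlap. For ERRFI1 and ERBB2 the difference between the controls had the opposite sign to that after silencing, and for NRG1 it had the same sign. EGFR (0.35), ERBB3 (0.17), ERBB4 (0.15) and HBEGF (0.04) had adjusted p from 0.37 to 0.932.

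Against Media in place of siNEG, the siEF libraries gave 3 members higher (EGFR, ERBB2 and ERRFI1) and 1 lower (NRG1), where 17.4% and 12.5% of all genes were called (29.9% in either direction). Again 6 of 7 tested members did not overlap between the groups, where 75.8% of all genes did not. The comparisons share the siEF libraries, so they are not independent, and their values for each member are shown side by side in the plot of the differences between groups.

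**Figure D3:**
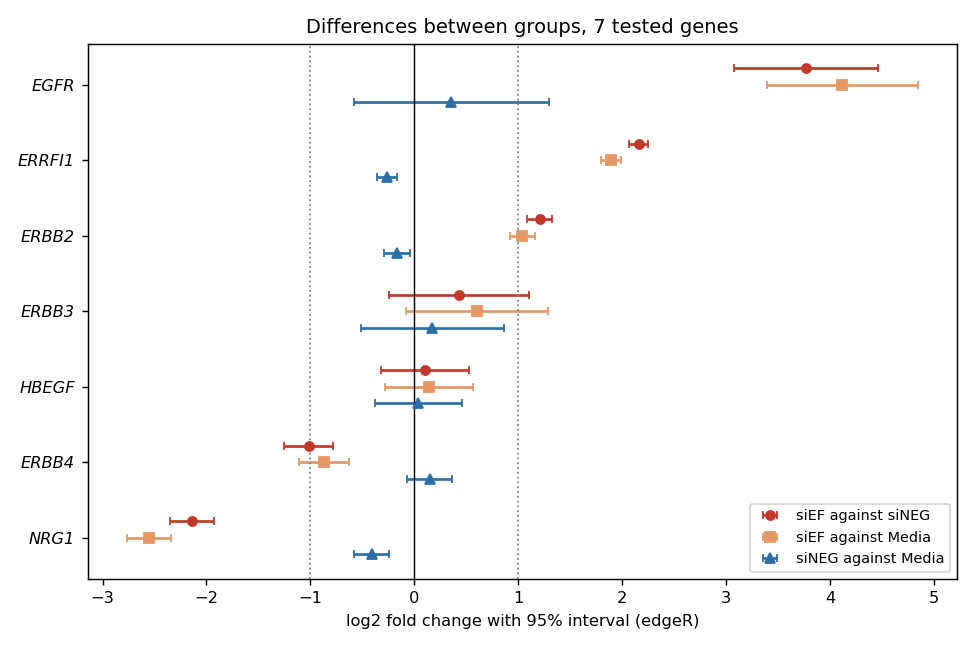
Differences between groups for the 7 tested genes. The horizontal axis gives the log2 fold change from edgeR with its 95% interval, the rows the genes, the symbols the 3 comparisons, and the dotted lines the fold cut-off of 1. The siEF comparisons lie beyond the cut-off for EGFR, ERRFI1 and NRG1, near it for ERBB2 and ERBB4 and across 0 for HBEGF and ERBB3, and the siNEG against Media values stay within it.

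The other genes of the pathway were taken as 7 lists by role, 61 genes in all, of which 56 were tested. After silencing, 16 rose, 2 fell and 38 were not called against siNEG, beside 17.1% of all genes higher and 11.7% lower, and the median Log2FC was 0.27 against 0.05 over all genes. Between siNEG and Media, 1 of the 56 was higher, where 0.162% of all genes were (ETV4, Log2FC 1.48, adjusted p = 3.91e-05). The called genes were mostly among the adaptors and the ERK output genes, and the core kinases had none.

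Of the 6 other ligands, EGF and NRG2 were tested and neither was called. EGF had a Log2FC of -0.37 (adjusted p = 0.0462) and NRG2 of -0.43 (adjusted p = 0.227). NRG3 had no count in the 9 libraries and NRG4 had 1. No ligand that could be tested was therefore called higher.

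Among the genes that cut or carry the ligands, 5 of 6 were tested and 1 rose, where 17.1% of all genes did. RHBDF1, an inactive rhomboid that helps ADAM17 to the cell surface, rose from 6.13 ± 0.216 to 17.0 ± 0.522 CPM (n = 3, Log2FC 1.47, adjusted p = 1.95e-09). The proteases ADAM10 (0.49), ADAM17 (0.47) and ADAM9 (0.33) were under the fold cut-off.

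Of 10 genes for receptor turnover and inhibition, 3 rose and none fell against siNEG, where 17.1% and 11.7% of all genes did. CBLB, a ubiquitin ligase that marks active receptors for breakdown, had a Log2FC of 1.20 (adjusted p = 1.45e-09), and LRIG3, a transmembrane protein of the LRIG family, of 1.16 (adjusted p = 8.2e-11). SH3GL2, or endophilin A1, which acts in receptor endocytosis, rose from 66.2 ± 2.61 to 144 ± 4.25 CPM (Log2FC 1.12, adjusted p = 3.64e-12). CBL (-0.58), the adaptor SH3KBP1 (-0.41) and RNF41 (-0.04), the ubiquitin ligase for ERBB3, were not called. By adjusted p alone, 5 were higher and 4 lower, where 65.4% of all genes passed, 5411 of them higher and 5108 lower. Among the 4 lower were LRIG1 (-0.48) and SOCS4 (-0.60), which was called lower against Media (-1.11). LRIG1 and SOCS4 were named after their values were seen.

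Of 10 adaptors and proximal effectors, 4 rose and 1 fell, where 17.1% and 11.7% of all genes did. GAB2, a docking protein, rose from 8.07 ± 0.427 to 36.8 ± 1.12 CPM (Log2FC 2.19, adjusted p = 8.55e-14) and its relative GAB1 by a Log2FC of 1.18 (adjusted p = 2.22e-11). The RAS exchange factor SOS2 (1.20, adjusted p = 5.73e-09) and the kinase SRC (1.15, adjusted p = 2.74e-10) rose too; against Media SOS2 was under the fold cut-off (0.93). PTPN11, or SHP2, the phosphatase that GAB1 recruits, fell by 1.09 (adjusted p = 2.83e-12); its value is uncertain because pseudogene copies can share its reads, and with upper quartile scaling it was not called. SHC1 (0.83), STAT3 (0.42) and PLCG1 (-0.57) were under the fold cut-off.

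Of the 10 genes of the RAS-ERK cascade none was called, and 5 had an adjusted p under 0.01, with 1 higher and 4 lower, where 65.4% of all genes reached it. NRAS (-0.80) and MAP2K2 (0.71) were among the most abundant. In the PI3K-AKT branch 2 of 9 rose and none fell, where 17.1% and 11.7% of all genes did. The regulatory subunit PIK3R1 rose from 60.2 ± 4.74 to 215 ± 2.92 CPM (Log2FC 1.84, adjusted p = 1.27e-13). AKT1 (-0.08), AKT2 (0.02) and PIK3R2 (0.93) were not called.

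Of 10 genes that ERK signaling is known to drive, 6 rose and 1 fell, where 17.1% and 11.7% of all genes did. Their median Log2FC was 1.44. ERK activity was not tested, and the paper names PHLDA1 as a well-established target that EWS::FLI1 represses. PHLDA1 rose by a Log2FC of 5.23 (adjusted p = 4.01e-17), from 3.19 ± 0.111 to 119 ± 7.25 CPM. The feedback inhibitors SPRY4 (3.55, adjusted p = 1.42e-14), SPRY2 (3.19, adjusted p = 1.6e-13), DUSP6 (1.59, adjusted p = 2.12e-13) and DUSP4 (1.29, adjusted p = 0.00334) rose, as did the ETS factor ETV5 (2.54, adjusted p = 9.04e-10). DUSP4 was not called against Media (Log2FC 0.56, adjusted p = 0.137). CCND1, or cyclin D1, fell by 4.29 (adjusted p = 6.51e-18), from 1868 ± 79.8 to 95.4 ± 6.73 CPM. EPHA4 (0.81), EPHA2 (0.37) and ETV4 (-0.31) were not called. DUSP6 and SPRY4 also had an adjusted p under 0.01 between siNEG and Media, at Log2FC of 0.56 and 0.67.

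**Figure D4:**
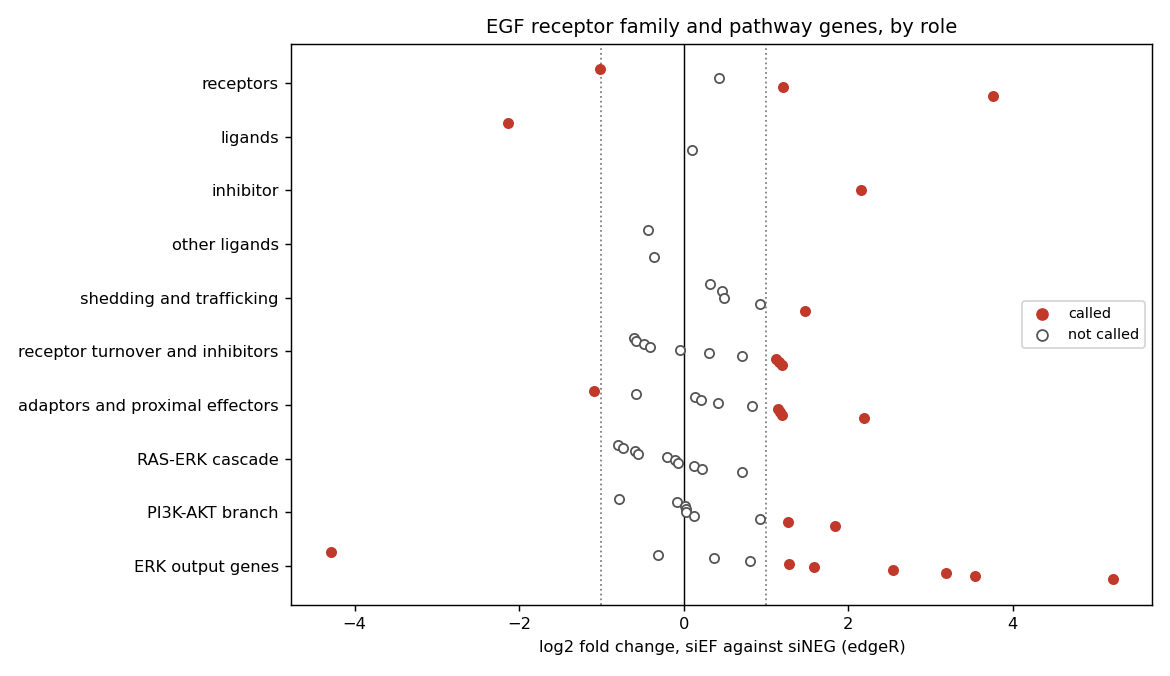
Change of the family and the pathway lists after silencing. The horizontal axis gives the Log2FC of the siEF libraries over siNEG from edgeR, the rows the roles, each point 1 tested gene, filled where it was called, and the dotted lines the fold cut-off of 1. No gene of the RAS-ERK cascade is filled, and in the ERK output row 6 filled points lie to the right and CCND1, at -4.29, to the left.

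For each tested member, the protein-coding genes with the nearest pattern were found as the smallest root mean square distance between log2 CPM profiles, each centred on its own mean, over the 9 libraries. Among the nearest to EGFR were CREBRF (distance 0.241) and SLC16A4 (0.257), and nearest to ERRFI1 were REV3L (0.0763), CTSB (0.0835) and TM4SF1 (0.0837). ERBB2 was nearest to BEX3 (0.0371), LRIG3 (0.0508) and LZTS2 (0.055), of which LRIG3 is also in the list of turnover genes. NRG1 was nearest to AASDHPPT (0.1), VAX1 (0.114) and CYCS (0.114), and ERBB4 to LATS1 (0.0764), ZNF814 (0.0767) and SETD3 (0.0806). The profiles of ERBB3, nearest to SIRT3 (0.101), and HBEGF, nearest to KATNAL2 (0.0974), differed little between groups. No member was among the nearest genes of another member.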

How the data were processed

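RNA-seq of TC32 cells was analysed in 3 groups (siEF, siNEG, Media) of 3 libraries. The authors mapped reads to hg38 with STAR and quantified them with RSEM, and the deposited values are RSEM expected counts per gene, not normalized. The submitters' processing notes name cutadapt 2.10 and DESeq2 1.32.0. Of 60603 identifiers, 99.51% matched GENCODE release 44, which gave positions and exon lengths. Expected counts were rounded, genes were filtered with filterByExpr (16093 kept) and scaled with TMM, and 1 mean per group was fitted over all 9 libraries with edgeR 4.0.16 (quasi-likelihood test, Benjamini-Hochberg over all genes tested, R 4.3.3). The study used DESeq2, here an alternative (1.42.0). Calls required a Log2FC beyond 1 in either direction with an adjusted p under 0.01, and all named p-values are from edgeR. Total counts per library were 20727706 to 33134581, and intervals of 95% cover the spread between these libraries, which the labels call biological replicates; whether they came from separate passages is not stated. No 2 libraries were identical, and replicates differed by 3.57 to 23.2 times the counting noise (chi-square per degree of freedom). On simulated counts for siEF against siNEG (15752 genes), edgeR recovered 88 of 100 genes changed by 2 and 94 of 99 changed by 3 on the log2 scale, with 4 false calls. The simulation changed 199 genes, upward and downward alike, whereas 28.8% of all genes were called in the data. Changes near the fold cut-off, where ERBB2 and ERBB4 lie, were not simulated.

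The members and lists were chosen with earlier results of these data known. All 10 members are named, with FLI1 and NR0B1 as the check of the knockdown, every called pathway gene, up to 3 uncalled genes per list with the highest mean CPM, and the 3 nearest patterns per member. MIEN1 and the neighbours of AREG were named for their position, and the uncalled markers as part of their lists. The values of some genes that this rule takes, and the sequence of NRG1, are not reported here.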

Additional observations from a re-analysis of the deposited data

How the results depend on the processing

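The calls of EGFR, ERRFI1 and NRG1 after silencing kept their direction and side of the threshold under every alternative in which they were tested (other scalings, DESeq2, filters, unrounded counts, only the 6 libraries compared, each library left out), with Log2FC of 3.54 to 4.19, 2.12 to 2.24 and -2.23 to -2.05 against siNEG; with at least 10 counts in every library EGFR was not tested. The members called lower against siNEG were 1 in place of 2 with upper quartile scaling, with a test against the cut-off and with at least 10 counts in every library, and 1 to 2 with each library left out. ERBB4 was the call lost: -0.93, -1.02 (adjusted p = 0.675) and -0.99, in the same order. ERBB2 lost its call against Media with the test against the cut-off (1.04, adjusted p = 0.348). With no fold cut-off, 2 members were lower between siNEG and Media, where 9.79% of all genes passed in either direction. Between siEF and Media 2 were lower, where 5193 of the 16093 genes tested were. Of the 56 pathway genes, 28 were then higher and 12 lower against siNEG, where 65.4% of all genes passed in either direction. With the test against the cut-off 10 were higher and 1 lower, and with upper quartile scaling 1 was lower. The shares of all genes called under those settings are not given here, so these counts are a description. Upper quartile scaling moved the median Log2FC of all genes after silencing from 0.05 to 0.13. With a library left out, HBEGF, never called, changed sign against siNEG (-0.033 to 0.216, negative without siEF replicate 3 or siNEG replicate 1), against Media (-0.0118 to 0.254, negative without Media replicate 2) and between the controls (-0.107 to 0.159, negative without siNEG replicate 2 or Media replicate 2), and so did EGFR between the controls (-0.0813 to 0.593, negative without siNEG replicate 3).

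With canonical transcript lengths, EGFR was at 0.375, 0.0273 and 0.0213 CPM per kb in siEF, siNEG and Media, ERBB2 at 22.5, 9.75 and 10.9, ERBB3 at 0.178, 0.132 and 0.117, and ERBB4 in siNEG at 1.53. Samples with the same replicate number did not deviate together (correlations of -0.0875 to 0.0482), and those with different numbers reached 0.081. This check showed no pairing by number but cannot exclude it, since counting noise can hide a shared deviation. With the replicate block, the members called after silencing against siNEG were 3 higher and 2 lower. TGFA, AREG and EREG, with at most 6 counts in a library, were removed by the filter on low counts.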
